A study of Mus musculus with 6 samples.

Results

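The mitotic genes described here encode the proteins that take a cell through division: the cyclin-CDK switch, the spindle, the kinetochores that tie chromosomes to it, the checkpoint that waits for that attachment, and the machinery that pinches the daughter cells apart. The set was drawn up as 44 gene symbols, matched exactly to the array's platform annotation, and each gene was read from whichever of its probe sets was brightest on average over the 6 arrays. Of these, 42 were measured, out of 18193 genes with a probe set of their own. No probe set carried the symbol Ccnb1 or Sgol1, so neither has a value under this rule; the gene now called Sgo1, of which Sgol1 is a RefSeq synonym, is given once below. RNA was measured with Affymetrix expression arrays in mouse mesenchymal stem cells, stromal cells able to form fat, bone and cartilage, bought from a commercial source.

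The 6 arrays form 3 pairs, each from an independent experiment in which 1 culture was exposed to terahertz radiation and 1 control culture stood next to it. Exposure lasted 2 h, from a broadband source pulsed at 1 kHz, with pulses of 35 fs, a frequency of about 10 THz and a power density of 1 mW/cm2. Both arms had received an adipogenic mix of dexamethasone (1 µM), insulin (5 µg/ml), rosiglitazone (1 µM) and IBMX (100 µM, an inhibitor of phosphodiesterases), added again 48 h earlier, and both were held at 26 to 27 °C. RNA was taken when exposure ended, and the question put by the design is which transcripts differ between an exposed culture and its own control. Strain, sex and passage of the cells are not given in the sources used here. All levels are log2 values normalized across arrays, so a level says how a transcript stands relative to the others, and differences are irradiated minus control with the standard error (SE) of a fit over 3 pairs.

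Mitotic transcripts are made mostly late in the cell cycle and cleared when division is over, so their level in a culture follows the share of cells in G2 and mitosis. In bulk RNA, fewer dividing cells and less of a transcript per dividing cell cannot be told apart. Many genes of this class are held silent in resting cells through a promoter element called the CHR, bound by the DREAM repressor complex, and are driven in dividing cells by B-MYB and FOXM1 on the MuvB core together with NF-Y on nearby CCAAT boxes. Cells that turn into adipocytes leave the cycle as they mature.

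Control culture 3 stood apart from the other 5 arrays. Its hybridization spike-in controls averaged 11.63, against 11.06 to 11.25 elsewhere. The 3' minus 5' values of the Actb and Gapdh control probe sets did not set it apart, at 0.72 and -0.03, against 0.61 to 0.76 and -0.05 to 0.23 on the other arrays. It was the lowest of the 6 arrays for 25.2% of all genes, and no other array was lowest for more than 16.2%. Of the mesenchymal markers 8 of 9 lay at or above 4.84, the level of the median probe set, with Thy1 the exception at 3.51 to 4.07. All 8 fat-cell markers and all 12 macrophage and leukocyte markers measured also lay above it. The mean over the macrophage and leukocyte list was 11.14 to 11.33 in controls and 11.31 to 11.38 in irradiated cultures, with control 3 the lowest array. Gene by gene, control 3 was lowest for 10 of these 12 markers (83.3%), and the pair of experiment 3 was positive for all 12. Their median position in control 3 was -0.17 relative to the median of the other 5 arrays. Control 3 was lowest for 1 of the 8 fat-cell markers and 2 of the 9 mesenchymal markers. The mean over the fat-cell list was 12.01 to 12.15 in controls and 11.89 to 11.94 in irradiated cultures, and that over the mesenchymal list 9.44 to 9.47 and 9.42 to 9.53. Only Kdr of the 6 endothelial markers reached the median level, and their mean was 3.36 to 3.63. The part of spike-in signal, RNA integrity or other cell types in the mitotic values was not tested.

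For nearly the whole mitotic set the lowest of the 6 cultures was the control of experiment 3. For 40 of the 42 genes control 3 was the lowest of the 6 arrays, against 25.2% of all genes and 28.8% of genes at or above the median level. The median gene stood 0.515 below the median of its other 5 arrays there, which is 1.43-fold. Over all genes that median was -0.01. The gap down to the next-lowest array had a median of 0.37 and was wider than the whole range of the other 5 arrays, whose median was 0.315, in 26 of the 42 genes, against 750 of all 18193 genes. The irradiated culture of experiment 3 lay within the range of experiments 1 and 2 for 36 of the 42 genes, against 9823 of all 18193, with a median of -0.01 relative to those 4 arrays, against -0.015 over all genes. The exceptions were Cdk1, Ube2c and Aurka, which lay above that range, and Mastl, Mad2l1 and Dlgap5, which lay below it.

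**Figure D1:**
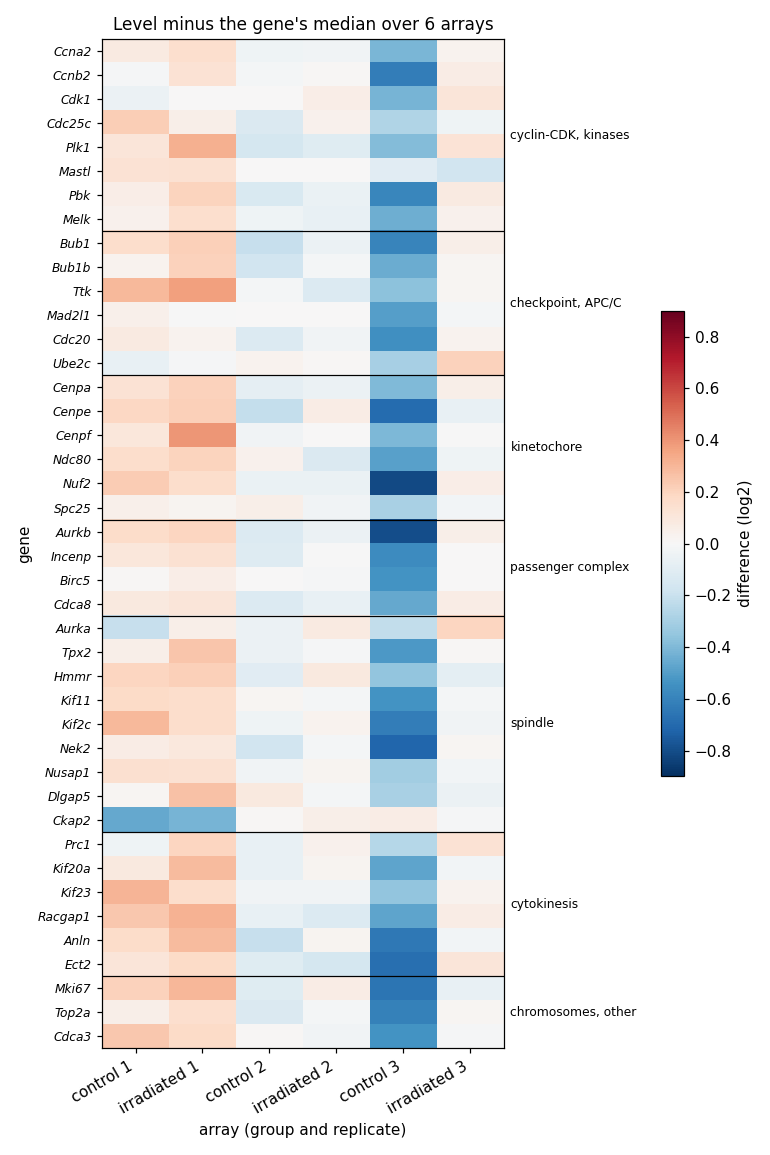
Level of each of the 42 measured mitotic genes on each array minus that gene's median over the 6 arrays (log2, colour), with genes in rows grouped by role and arrays in columns. The column of control 3 is blue in all rows but Ckap2, with a median deviation of -0.475, while the medians of the other columns lie between -0.055 and 0.16.

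Within pairs, the mitotic set was nearly level in experiments 1 and 2 and separated in experiment 3. The median difference was 0.055 in experiment 1, 0.045 in experiment 2 and 0.515 in experiment 3, or 1.04-fold, 1.03-fold and 1.43-fold. In experiment 1 the difference was positive for 32 genes and negative for 10, and in experiment 2 it was positive for 27, negative for 11 and exactly 0 for 4. In experiment 3 it was positive for 40 and negative for 2, where 49.1% of all genes were positive. A positive difference in all 3 pairs was seen in 22 of the 42 genes, against 12.4% of all genes. Since the pair of experiment 3 was positive for 40, that count is set mainly by the pairs of experiments 1 and 2.

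No mitotic gene passed the test over the 3 pairs. In the blocked limma fit, 0 of the 42 genes had an adjusted p under 0.05, where 0% of all probe sets did, and the smallest adjusted p in the set was 0.929. An unadjusted p under 0.05 was reached by 8 genes, all higher in irradiated cultures, against 1.93% of all genes and 2.59% of all probe sets in that direction. These were Bub1b, Cenpe, Cenpf, Aurka, Prc1, Kif20a, Anln and Mki67. Averaged over the pairs, 40 genes had a positive difference, against 50.5% of all genes and 49.6% of those at or above the median level, Mastl a negative one and Ckap2 one of 0. The median was 0.20, or 1.15-fold, against 0.0033 over all genes. The 95% interval lay inside 2-fold in both directions for all 42 and inside 1.5-fold for 33. Of all 18193 genes, 18175 had an interval inside 2-fold and 17753 inside 1.5-fold. Without replicate 3 the median was 0.045, with 32 genes positive, 9 negative, 0 past adjusted p 0.05 and 0 at an unadjusted p under 0.05. Over all 45037 probe sets in that fit the median was 0.005, with 23228 positive and 21000 negative. With control 3 alone left out and no block, the members' median was also 0.045, with 29 genes positive. The share over all genes is not given here for that fit.

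**Figure D2:**
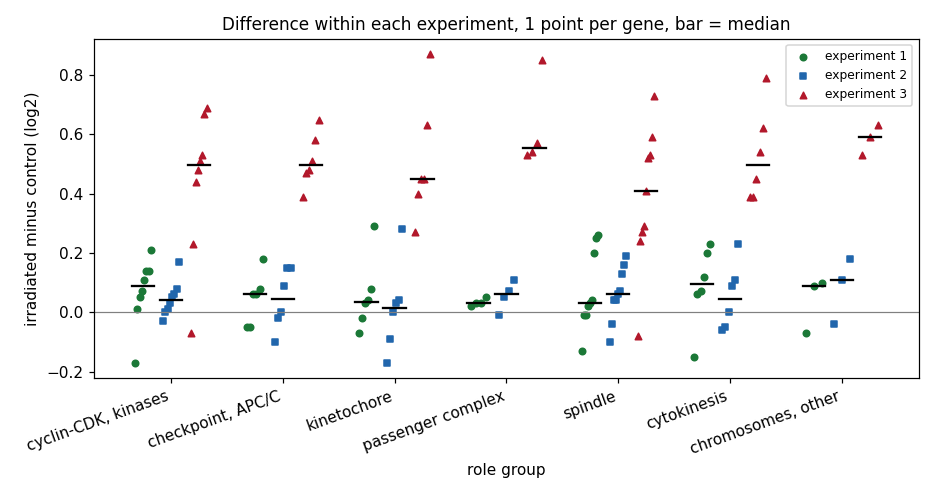
Irradiated minus control (log2) within each experiment for the 42 measured mitotic genes, by role group, with 1 point per gene and a bar at the median. Experiment 3 (triangles) has medians of 0.41 to 0.59 in the 7 groups, and experiments 1 and 2 have medians between 0.015 and 0.11.

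Promoter sequences are shown for 6 genes because they span the range of behaviour in control 3 and the elements known for this class. Of the 44 genes, 35 had a RefSeq promoter window on GRCm38.p6, from 250 bases before to 50 after the annotated start. The CHR was searched as TTTGAA and the CCAAT box as CCAAT, each on both strands, and the letters of a match are in capitals below. Ccnb2 (chr9:70421505-70421804), Cdc20 (chr4:118437294-118437593), Cdca8 (chr4:124936868-124937167) and Aurka (chr2:172370521-172370820), all on the minus strand, hold both motifs. Nuf2 (chr1:169531415-169531714, minus strand), the gene with the widest gap in control 3, holds neither in this window. Ckap2 (chr8:22185770-22186069, minus strand), which was not low in control 3, holds both. Distances are counted from the start, negative upstream, to the first base of a match. In Ccnb2 a CHR match lies at 4, with CCAAT matches at -21, -54 and -87 before it, and another CHR match lies at -167. In Cdc20 the CHR match at -18 lies between CCAAT matches at -53 and -8, and in Aurka it lies at 32, after CCAAT matches at -51 and -19. In Ckap2 the order is the other way round, with the CHR match at -101 and the CCAAT match, on the other strand, at -20. In Cdca8 a CHR match and a CCAAT match overlap, so their capitals run together.
Ccnb2: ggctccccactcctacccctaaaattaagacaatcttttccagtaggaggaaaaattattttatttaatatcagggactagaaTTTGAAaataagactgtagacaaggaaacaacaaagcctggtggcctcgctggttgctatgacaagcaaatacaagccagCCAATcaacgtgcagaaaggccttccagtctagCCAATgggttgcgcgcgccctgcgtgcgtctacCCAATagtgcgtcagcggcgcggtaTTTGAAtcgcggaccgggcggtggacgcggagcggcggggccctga
Cdc20: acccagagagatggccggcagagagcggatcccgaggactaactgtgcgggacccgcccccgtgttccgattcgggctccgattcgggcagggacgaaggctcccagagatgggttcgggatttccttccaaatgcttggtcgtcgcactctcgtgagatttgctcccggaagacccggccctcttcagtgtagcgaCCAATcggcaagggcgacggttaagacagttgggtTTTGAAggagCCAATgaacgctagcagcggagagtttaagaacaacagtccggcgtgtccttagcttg
Cdca8: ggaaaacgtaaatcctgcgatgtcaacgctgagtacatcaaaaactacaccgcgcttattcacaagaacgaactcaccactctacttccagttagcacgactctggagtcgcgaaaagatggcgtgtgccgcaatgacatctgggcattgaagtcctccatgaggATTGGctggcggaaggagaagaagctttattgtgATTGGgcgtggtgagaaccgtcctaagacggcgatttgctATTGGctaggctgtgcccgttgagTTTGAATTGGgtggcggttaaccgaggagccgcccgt
Aurka: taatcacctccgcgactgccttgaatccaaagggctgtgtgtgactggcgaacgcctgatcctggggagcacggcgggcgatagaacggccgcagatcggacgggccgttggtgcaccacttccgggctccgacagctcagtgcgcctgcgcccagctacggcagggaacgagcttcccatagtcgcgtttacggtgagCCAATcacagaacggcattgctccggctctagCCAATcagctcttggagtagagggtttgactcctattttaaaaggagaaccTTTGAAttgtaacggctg
Nuf2: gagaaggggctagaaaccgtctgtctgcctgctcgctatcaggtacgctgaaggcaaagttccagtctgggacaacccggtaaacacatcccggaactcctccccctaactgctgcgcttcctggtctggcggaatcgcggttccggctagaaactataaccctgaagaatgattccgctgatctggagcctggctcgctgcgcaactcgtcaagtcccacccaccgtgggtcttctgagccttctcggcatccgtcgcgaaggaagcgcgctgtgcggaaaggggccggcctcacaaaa
Ckap2: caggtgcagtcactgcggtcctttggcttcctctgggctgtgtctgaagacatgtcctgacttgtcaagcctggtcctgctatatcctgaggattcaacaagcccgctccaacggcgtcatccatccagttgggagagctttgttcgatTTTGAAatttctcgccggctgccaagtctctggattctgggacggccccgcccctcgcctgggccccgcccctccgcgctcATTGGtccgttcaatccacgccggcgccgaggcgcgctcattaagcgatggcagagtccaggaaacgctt

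Shares here are of genes, and a gene with several windows was counted once, if any of them held a match. A CHR match was present in 25 of the 35 genes (71.4%), against 20.2% of all 27025 genes in the RefSeq table. It lay within 50 bases of the start in 22 (62.9%), against 5.72% of all genes. A CCAAT match was present in 27 (77.1%), against 41.1%, and both motifs in 22 (62.9%), against 7.97%. Among other genes of mitosis, 43 of 96 held a CHR match (44.8%), 34 within 50 bases of the start (35.4%). A CCAAT match was held by 61 (63.5%) and both motifs by 32 (33.3%). Among genes of G1/S and of DNA replication, which are expressed before mitosis, 3 of 28 held a CHR match (10.7%). A CCAAT match was held by 18 of these 28 (64.3%). Median GC content per gene was 58.67% in the mitotic set, 60.67% in other genes of mitosis, 61.17% in the G1/S list and 52.67% over all genes. Control 3 minus the median of the other 5 arrays had a median of -0.50 (-0.79 to 0.08) over the 25 measured genes with a CHR match. It had a median of -0.54 (-0.87 to -0.10) over the 9 without one, and the difference was not tested. Those 9 were Mastl, Melk, Bub1, Mad2l1, Cenpe, Nuf2, Birc5, Nek2 and Nusap1. A match is a run of letters in a window, not a measured binding site.

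**Figure D3:**
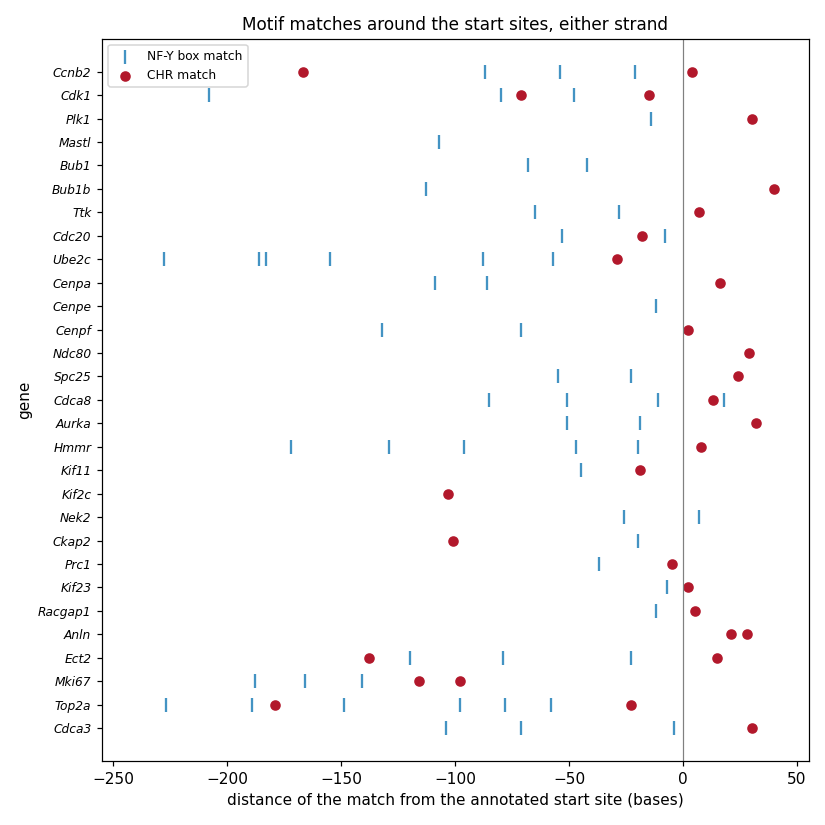
Distance in bases from the annotated start site of each CHR match (circles) and each CCAAT match (bars, labelled NF-Y box), on either strand, in the promoter windows of the 29 measured mitotic genes with a match. Where several windows of a gene hold a match, that with the lowest start coordinate is drawn. A circle lies within 50 bases of the start in 22 genes; Melk, Mad2l1, Nuf2, Birc5 and Nusap1 have no match and are not drawn.

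Among the genes of mitotic entry and exit, the cyclins and their kinase followed the common pattern and Mastl did not. Ccnb2, the cyclin B2 that activates CDK1 and whose promoter is shown above, stood at 8.57 and 8.71, 8.56 and 8.59, and 7.96 and 8.65, where each pair of values is control then irradiated and the pairs run from experiment 1 to 3, as for every gene given in this way. Its irradiated levels lay above all its control levels, by 0.02 at the closest. This was the case for 3 of the 42 genes, Ccnb2, Aurka and Prc1, and for 3.31% of all genes. The Ccnb2 difference was 0.29 ± 0.14 (limma adjusted p = 0.929), and 0.085 without replicate 3.

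Ccna2, cyclin A2, which acts from S phase to early mitosis, stood at 9.61 and 9.68, 9.49 and 9.50, and 9.12 and 9.56. Cdk1, the kinase of mitotic entry, stood at 9.18 and 9.23, 9.23 and 9.29, and 8.81 and 9.34. Pbk, a kinase active in mitosis, stood at 8.55 and 8.69, 8.35 and 8.43, and 7.90 and 8.57. In each of the 3 control 3 lay below the other 5 arrays, which spanned at most 0.34. Their differences were 0.17 ± 0.11, 0.21 ± 0.12 and 0.30 ± 0.13.

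Plk1, the polo-like kinase of spindle assembly and mitotic exit, was at 6.89 in control 3 and at 7.12 to 7.60 on the other arrays. Melk, a kinase gene of the same expression class, was at 6.83 against 7.20 to 7.42. Cdc25c, the phosphatase that activates CDK1, was at 5.46 against 5.6 to 5.95, and its pair differences of -0.17, 0.17 and 0.23 changed sign. Mastl, the Greatwall kinase that keeps the phosphatase PP2A off during mitosis, stood at 6.54 and 6.55, 6.41 and 6.41, and 6.31 and 6.24. Its lowest array was irradiated 3, and its difference was -0.02 ± 0.08. A dimmer probe set of Mastl disagreed, at 4.64 and 4.98, 4.64 and 4.98, and 4.34 and 4.82, so the gene's value depends on the probe set.

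The spindle checkpoint and anaphase genes were low in control 3 without exception among the 6 measured. Cdc20, the activator that turns the anaphase-promoting complex on once the checkpoint is met, stood at 9.49 and 9.44, 9.29 and 9.38, and 8.86 and 9.44. Ube2c, the ubiquitin-conjugating enzyme of that complex, stood at 9.61 and 9.67, 9.71 and 9.69, and 9.38 and 9.89. Ube2c was unusual in that irradiated 3 was its highest array, so control 3 lay 0.23 below the next array and irradiated 3 lay 0.18 above.

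Bub1, a checkpoint kinase at the kinetochore, stood at 8.5 and 8.56, 8.14 and 8.29, and 7.75 and 8.40. Bub1b, which encodes the BubR1 part of the mitotic checkpoint complex, stood at 7.21 and 7.39, 7.01 and 7.16, and 6.73 and 7.20. Both were positive in every pair, and experiment 1 was the highest of the 3 experiments in both. Their differences were 0.29 ± 0.13 and 0.27 ± 0.09 (limma adjusted p = 0.929 for both, unadjusted p = 0.0656 and 0.0291), and the 2 other Bub1b probe sets had pair differences of 0.03, 0.32 and 0.44, and of -0.03, -0.02 and 0.23. Ttk, the kinase also known as MPS1, was at 6.09 in control 3 and at 6.34 to 6.83 elsewhere. Mad2l1, which encodes the checkpoint inhibitor MAD2, was the flattest gene outside control 3, with 5 arrays between 9.11 and 9.17 and control 3 at 8.63.

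Of the 6 kinetochore and centromere genes measured, all were lowest in control 3, by very different amounts. Nuf2, a subunit of the NDC80 complex that grips microtubules, stood at 6.62 and 6.55, 6.33 and 6.33, and 5.58 and 6.45. The pair of experiment 3 differed by 0.87, or 1.83-fold, the largest pair difference in the set, while those of experiments 1 and 2 differed by -0.07 and 0. The fitted difference was therefore 0.27 ± 0.19 (limma adjusted p = 0.931), and it was -0.035 without replicate 3. Cenpe, the kinesin that carries chromosomes to the spindle equator, stood at 7.48 and 7.51, 7.08 and 7.36, and 6.60 and 7.23, with a difference of 0.31 ± 0.12.

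Spc25, of the same NDC80 complex as Nuf2, stood at 8.87 and 8.85, 8.88 and 8.79, and 8.53 and 8.80. Its pair of experiment 3 differed by 0.27 and its fitted difference was 0.05 ± 0.10. On these probe sets 2 subunits of 1 complex thus differed in size of the gap although control 3 was lowest for both. The other Spc25 probe set, with a mean level of 4.41, differed by 0.44 in experiment 3, so the size depends on the probe set. Cenpa, the histone H3 variant that marks centromeres, stood at 8.39 and 8.47, 8.18 and 8.21, and 7.86 and 8.31. Ndc80 was at 6.08 in control 3 and at 6.44 to 6.77 elsewhere, and Cenpf, a large kinetochore-associated protein gene, at 6.28 and at 6.65 to 7.08. Sgo1, the shugoshin that protects centromeric cohesion and was reached only through its older symbol Sgol1, stood at 6.58 and 6.75, 6.35 and 6.42, and 5.83 and 6.43. It had the shape of the other kinetochore genes, with a difference of 0.28 ± 0.12 (limma adjusted p = 0.929).

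The 4 genes of the chromosomal passenger complex, which corrects faulty attachments and later guides cytokinesis, were all lowest in control 3, and in each the gap was wider than the range of the other 5 arrays. Aurkb, its Aurora B kinase, stood at 7.46 and 7.49, 7.17 and 7.24, and 6.50 and 7.35. Incenp, the scaffold, stood at 9.79 and 9.82, 9.57 and 9.68, and 9.12 and 9.69. Cdca8, which encodes borealin, stood at 9.44 and 9.46, 9.23 and 9.28, and 8.89 and 9.42. In all 3 the pair of experiment 1 differed by at most 0.03 and that of experiment 3 by at least 0.53. Birc5, survivin, held 5 arrays between 9.14 and 9.21 and lay at 8.61 in control 3. The fitted differences were 0.32 ± 0.17 for Aurkb, 0.24 ± 0.12 for Incenp, 0.20 ± 0.12 for Cdca8 and 0.19 ± 0.12 for Birc5. Without replicate 3 the group's differences lay between 0.02 and 0.07. The probe sets of Incenp disagreed: with the mean over all of them its difference was 0.024, and 1 of them, with a mean level of 4.52, had pair differences of -0.10, -0.71 and -0.15.

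Spindle genes held both the member with the smallest p and the member least like the rest. Aurka, the Aurora A kinase of centrosomes, stood at 7.35 and 7.61, 7.51 and 7.64, and 7.34 and 7.75. Control 3 was lowest by 0.01, next to control 1, and every irradiated level lay above every control level. Its difference of 0.27 ± 0.09 had the smallest unadjusted p of the set, 0.0216 (limma adjusted p = 0.929), and it was 0.195 without replicate 3. A dimmer probe set of Aurka, with a mean level of 3.07, had pair differences of -0.13, -0.04 and -0.23. Nek2, a centrosome kinase, stood at 7.64 and 7.67, 7.40 and 7.56, and 6.86 and 7.59. Tpx2, which activates Aurora A on spindle microtubules, stood at 8.16 and 8.36, 8.06 and 8.10, and 7.59 and 8.12. Nek2 and Tpx2 thus had the common shape, with differences of 0.31 ± 0.14 and 0.26 ± 0.11.

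Ckap2, a cytoskeleton-associated protein of spindle poles, stood at 8.16 and 8.20, 8.63 and 8.67, and 8.69 and 8.61. Here experiment 1 was the low experiment in both arms, control 3 was the highest array, and the difference between arms was 0.00 ± 0.08. Among the other spindle genes, the motor genes Kif11 and Kif2c were at 5.75 and 6.83 in control 3, against 6.27 to 6.46 and 7.41 to 7.74 elsewhere. Hmmr was at 7.68 against 7.93 to 8.25, Nusap1 at 7.32 against 7.60 to 7.78, and Dlgap5 at 6.08 against 6.32 to 6.64. These 3 encode microtubule-binding proteins of the spindle, and their pairs of experiment 3 differed by 0.27, 0.29 and 0.24, below the set's median of 0.515.

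All 6 cytokinesis genes were lowest in control 3. An unadjusted p under 0.05 by limma was reached by 3 of them, all higher, against 1.93% of all genes in that direction. None of the 6 passed adjusted p 0.05. Anln, the anillin that scaffolds the contractile ring, stood at 8.99 and 9.11, 8.62 and 8.85, and 8.18 and 8.80. Prc1, which bundles the microtubules of the midzone, stood at 7.93 and 8.16, 7.90 and 8.01, and 7.71 and 8.10. Ect2, the exchange factor that activates RhoA at the cell's equator, stood at 6.77 and 6.83, 6.55 and 6.50, and 5.98 and 6.77. Anln and Prc1 were positive in every pair on these probe sets and Ect2 was not. The other Anln probe set, with a mean level of 4.98, was negative in every pair, at -0.10, -0.18 and -0.05. Their differences were 0.32 ± 0.11, 0.24 ± 0.09 and 0.27 ± 0.17 (limma adjusted p = 0.929 for each). Kif20a, the midzone kinesin MKLP2, was at 7.08 in control 3 and at 7.49 to 7.84 elsewhere, with a difference of 0.25 ± 0.10. The centralspindlin genes Kif23 and Racgap1 were at 7.03 and 6.86, against 7.35 to 7.69 and 7.21 to 7.65.

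The chromosome genes and Cdca3 were lowest in control 3 by wide gaps. Mki67, which coats mitotic chromosomes and is the Ki-67 antigen of pathology, stood at 9.91 and 10.00, 9.59 and 9.77, and 9.04 and 9.63. Top2a, the topoisomerase that untangles sister chromatids, stood at 9.49 and 9.59, 9.31 and 9.42, and 8.83 and 9.46. Cdca3, a trigger of mitotic entry, was at 8.01 in control 3 and at 8.52 to 8.79 elsewhere. For Mki67 the experiments were ordered 1, 2 and 3 in both arms, while Top2a in irradiated 3 lay between the cultures of experiments 1 and 2. The differences were 0.29 ± 0.11 for Mki67 and 0.28 ± 0.12 for Top2a (limma adjusted p = 0.929 for both), and 0.135 and 0.105 without replicate 3.

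**Figure D4:**
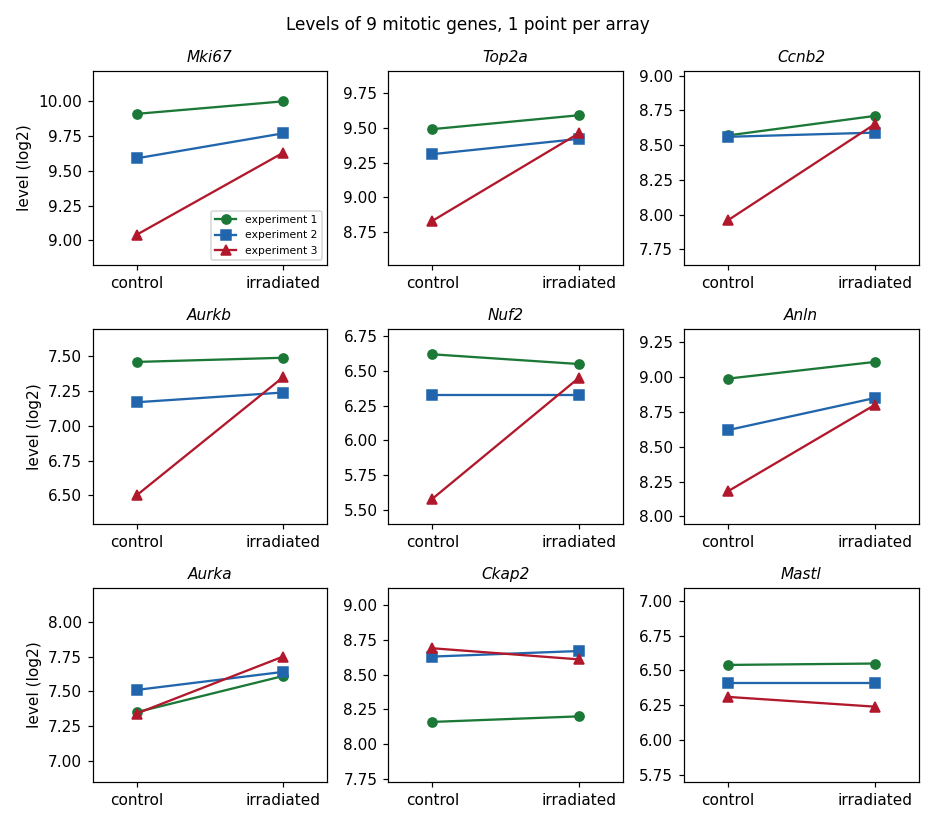
Level (log2) of 9 mitotic genes in the control and irradiated culture of each experiment, with 1 point per array and a line joining the arms of an experiment; every panel spans 1.4 log2 units. Control 3 (lower left triangle) is the low point for Mki67, Top2a, Ccnb2, Aurkb, Nuf2 and Anln, lies beside control 1 for Aurka, and is not the lowest for Ckap2 and Mastl.

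Other probe sets of the same genes, which read the same RNA through other probes, were examined for the 28 members that have more than 1. There were 51 such probe sets. Of the 22 at or above the median level, 19 were lowest in control 3 (86.4%) and 21 had a positive difference, with pair medians of 0.105, 0.045 and 0.465. Of the 29 below it, 12 were lowest in control 3 (41.4%), with pair medians of 0.01, 0.07 and 0.14. With the mean over all probe sets of a gene, several fitted differences shrank: that of Anln from 0.32 to 0.11, of Aurka from 0.27 to 0.07, of Cenpa from 0.19 to 0.04, of Nek2 from 0.31 to 0.13, of Top2a from 0.28 to 0.16, of Cenpe from 0.31 to 0.20 and of Bub1 from 0.29 to 0.19. That of Spc25 went from 0.05 to 0.08.

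Between experiments the mitotic genes were highest in experiment 1, though no member passed that test either. With the arm as a covariate, experiment 2 minus experiment 1 had a median of -0.1875 and was negative for 38 genes, with 0 past adjusted p 0.05 by limma, where 0.52% of all probe sets passed (0.0466% lower, 0.473% higher). Experiment 3 minus experiment 1 had a median of -0.3875 and was negative for 40, with 0 past the threshold, where 3.05% passed (1.18% lower, 1.87% higher). Experiment 3 minus experiment 2 had a median of -0.185, with 0 past it, where 0.0355% passed. Over all 18193 genes the medians were -0.02, -0.02 and -0.01 in the same order, with 9881, 9818 and 9513 genes negative. Both contrasts with experiment 3 include control 3. Control 3 minus control 1 had a median of -0.565, while irradiated 3 minus irradiated 1 had one of -0.135. Control 3 minus control 2 had a median of -0.41 and was negative for 41 of the 42 genes. In the irradiated arm, experiment 3 minus experiment 2 had a median of 0.04, with 28 genes positive and 13 negative. The fall from experiment 2 to 3 was thus seen in the control arm and not in the irradiated arm. Irradiated 2 minus irradiated 1 and control 2 minus control 1 had medians of -0.18 and -0.20, so the step from experiment 1 to 2 was of like size in the arms. The nearest to the threshold was Ckap2, in the opposite direction, at 0.47 ± 0.09 in experiment 3 minus 1 (limma adjusted p = 0.0622), which passed on probe sets at or above the median level (adjusted p = 0.024), with an intensity trend (0.00925) and with the mean of probe sets (0.035). Mki67 was at -0.62 ± 0.14 (limma adjusted p = 0.0831) and Hmmr at -0.425 ± 0.10 (adjusted p = 0.100). Both passed on probe sets at or above the median level (adjusted p = 0.0445 and 0.0427) and with an intensity trend (0.0116 and 0.0264).

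Other genes of mitosis were taken from 5 lists with 112 measured members, and differences between the lists were not tested. Of 29 kinetochore genes 25 had a positive and 4 a negative difference, with a median of 0.14, pair medians of 0.04, 0.06 and 0.30, and control 3 lowest in 22. Cohesin, condensin and separase genes had 16 of 18 positive and 1 negative, with a median of 0.12 and control 3 lowest in 17. Other motor and centrosome genes had 26 of 29 positive, 2 negative, a median of 0.14 and control 3 lowest in 22. Subunits and regulators of the anaphase-promoting complex had 8 of 14 positive, 6 negative, a median of 0.01 and control 3 lowest in 5. Regulators such as cyclin F, the CKS proteins and the MuvB subunits had 14 of 22 positive, 6 negative, a median of 0.03 and control 3 lowest in 9. None of the 112 passed adjusted p 0.05 by limma. An unadjusted p under 0.05 was reached by 9 (8.04%), all positive. In that direction it was reached by 1.93% of all genes and 1.18% of those at or above the median level.

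Single genes of these lists varied within a list. Cenpi, of the inner kinetochore, stood at 6.92 and 7.25, 6.98 and 7.14, and 6.02 and 6.85, with a difference of 0.44 ± 0.14 (limma adjusted p = 0.929). Espl1, the separase that cleaves cohesin, stood at 6.21 and 6.47, 5.97 and 6.15, and 5.56 and 6.19. Fbxo5, the inhibitor EMI1 of the anaphase-promoting complex, stood at 6.98 and 7.01, 6.51 and 6.61, and 5.61 and 6.38. In these 3 the pair of experiment 3 differed most. The core subunits Cdc16 and Anapc5 were also lowest in control 3, by less. Cdc16 was at 9.96 there and at 9.97 to 10.13 elsewhere, and Anapc5 at 11.39 and at 11.45 to 11.64, with pair differences of 0.07, 0.08 and 0.15. The core subunit Cdc23 was not lowest there, at 8.04 against 7.93 to 8.10 elsewhere, with pair differences of -0.05, -0.17 and -0.11. Cks2, which binds cyclin-dependent kinases, stood at 10.44 and 10.46, 10.55 and 10.65, and 10.82 and 11.05, and so was highest in experiment 3 in both arms. Zwint, a kinetochore gene, was at 10.39 and 10.32 in experiment 3 and lowest in experiment 1.

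The G1/S and DNA replication list, 33 genes measured, was lower in control 3 by a smaller median. Its median position there was -0.33, with control 3 lowest in 25 genes (75.8%), against -0.515 and 40 of 42 (95.2%) in the mitotic set; that difference between lists was not tested. Its pair medians were 0.00, 0.07 and 0.39. Cdc45 was lowest in control 3, at 6.30 against 6.39 to 6.76 elsewhere. Other named genes of the list were not. Orc1, of the origin recognition complex, was at 5.45 and 5.77, 5.54 and 5.6, and 5.45 and 5.72, so control 3 was level with control 1. Pcna, the replication clamp, was at 11.58 and 11.58, 11.91 and 11.87, and 12.06 and 12.11, highest in experiment 3. Ccnd1 was highest in control 3, at 11.97 against 11.77 to 11.89 elsewhere. A gap of at least 0.3 below every other array was shown by 314 of the 11740 genes at or above the median level. These included 29 of the 42 mitotic genes, 25 of 109 other genes of mitosis and 13 of 32 G1/S genes, and 247 genes whose symbols are in none of these lists, Sgo1 among them. The mitotic genes are thus 9.24% of all genes with such a gap.

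**Figure D5:**
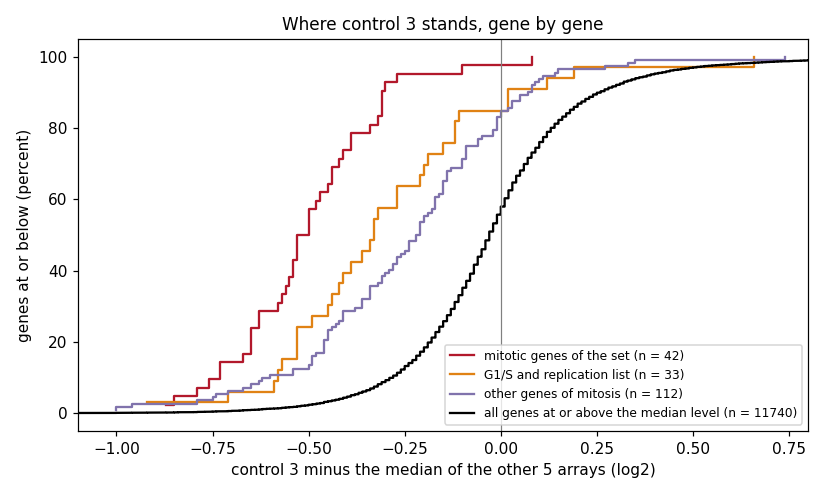
Cumulative share of genes (percent) by the level in control 3 minus the median of the other 5 arrays (log2) for the 42 mitotic genes, the 33 G1/S genes, the 112 other genes of mitosis and the 11740 genes at or above the median level. The curve of the mitotic genes lies farthest left, with a median of -0.515 against -0.33, -0.215 and -0.03.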

How the data were processed

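RNA from 6 cultures was measured with Affymetrix arrays, from 200 ng of total RNA labelled by priming from the poly(A) tail, per the labels' protocols. The authors deposited 1 log2 level per probe set and array, and the submitters' processing notes name RMA, affy and limma without versions. RMA corrects background, equalizes distributions between arrays and summarizes probes, which hides any change common to all transcripts. No source used here gives the log base, which was taken to be 2 as in RMA output. Scanner files were not used here.

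Of 45101 probe sets, 64 Affymetrix controls were left out. Of the 45037 tested, 34945 have 1 gene symbol in the platform annotation, 932 several and 9160 none. A gene with several single-gene probe sets is read from the one of highest mean. The test was limma 3.58.1 under R 4.3.3 (lmFit and eBayes, two-sided, Benjamini-Hochberg over all 45037 probe sets, threshold 0.05), with the experiment as a block. The script was tested on simulated data. Per the series design the pairs share an experiment, and deviations from group means correlated within pairs with r = 0.63, 0.14 and 0.50 across probe sets, which are not independent replicates. Between arrays of different pairs r lay from -0.54 to 0.15. The highest of these was irradiated 2 with control 3, slightly above irradiated 2 with its own control. The number of arrays limits the precision: the median SE of the mitotic genes is 0.12.

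The members and all lists were chosen with earlier results of these data known, so no p over a list is given. Every member may be named. Values on each array are given for the 2 brightest members of each role group and the 2 with the largest mean difference, and the remaining members, including Mastl, by range or in full where they depart from the rest. From other lists, genes were taken among the 2 with the smallest unadjusted p and the 2 brightest. Alternatives were the pairing, the normalization, a filter on level, the variance prior, array weights, the mean of probe sets and leaving out each experiment or control 3.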

Additional observations from a re-analysis of the deposited data

How the results depend on the processing

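Under all 13 other settings, 0 probe sets and 0 mitotic genes passed adjusted p 0.05 between arms. The median difference was 0.20 with no replicate block and 0.15 to 0.20 under the other settings that keep all arrays, with 40 or 41 genes positive. Leaving out 1 experiment gave medians from 0.045 (without replicate 3) to 0.295 (without replicate 2), 32 to 40 positive genes, and 0 to 4 genes at unadjusted p under 0.05. That last count was 8 in the reported fit, 2 with no replicate block, 3 with a random block, 5 with median centring, 4 with array weights and 16 with an intensity trend. In the reported fit 1.93% of all genes reached it in the higher direction. The all-gene shares under the other settings are not given here, so their counts have no background beside them. Of 325 values of named genes under alternatives, 6 had the opposite sign: Nuf2 at -0.035 without replicate 3 (0.435 without replicate 1) and -0.032 without control 3 and no block, Spc25 at -0.055 without replicate 3 (0.125 without replicate 2) and -0.062 without control 3 and no block, and Mastl at 0.005 without replicate 3 and 0.14 with the mean of probe sets; the cause was not tested. Control 3 was lowest for 39 genes after quantile normalization or median centring (medians -0.50 and -0.485) and for 40 with the mean of probe sets (median -0.41). For experiment 3 minus 1, 3 members passed on probe sets at or above the median level (Hmmr and Mki67 lower, Ckap2 higher), 6 with an intensity trend and 1, Ckap2, with the mean of probe sets, where the members' median was -0.26. For experiment 2 minus 1, 1 member (Ckap2) passed with an intensity trend. In the reported fit 3.05% of all probe sets passed for experiment 3 minus 1 and 0.52% for experiment 2 minus 1. The shares under these other settings are not given here, so the member counts cannot be read as particular to mitotic genes. Adding Sgo1, chosen after seeing the data, gave a median of 0.21 and 41 positive genes of 43. Dim probe sets limit what can be read of Cdc25c and of most second probe sets.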

Other observations

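Inhibitors of the cell cycle, which hold cyclin-dependent kinases off in resting cells, were read beside the mitotic genes. Of 10 measured, 4 had a positive and 6 a negative difference, with a median of -0.05 and 0 past adjusted p 0.05 by limma (0 at unadjusted p under 0.05), and control 3 was lowest in 3. Cdkn1c, the p57 inhibitor, stood at 6.46 and 6.33, 6.60 and 6.64, and 7.20 and 6.76, given as control then irradiated for experiments 1 to 3. Cdkn2a, the locus of p16 and ARF, stood at 11.58 and 11.58, 11.84 and 11.70, and 12.17 and 11.82. For both, control 3 was the highest array. Over the 10 inhibitors, control 3 minus the median of the other 5 arrays had a median of -0.015, against -0.01 over all genes. Control 3 was lowest for 30% of them, against 28.8% of genes at or above the median level. Cdkn1a, the p21 inhibitor, was at 12.90 in both arms of experiment 3, with differences between the arms of -0.16 and -0.09 in experiments 1 and 2.

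Among the 247 genes with a gap of at least 0.3 in control 3 whose symbols are in none of the cell-cycle lists (Sgo1, the current symbol of Sgol1, is 1 of them), the widest gaps were in genes of several kinds. The names that follow were chosen after their values were seen. Haspin, the kinase that marks centromeric histone H3, stood at 5.99 and 6.19, 5.58 and 5.65, and 4.5 and 5.58. Aspm, a spindle pole gene, stood at 6.72 and 6.83, 6.39 and 6.47, and 5.58 and 6.30, and Hells, a chromatin remodeller, at 7.49 and 7.51, 7.19 and 7.24, and 6.41 and 7.33. Genes not known for a part in division were there too. The matrix protease gene Adamts15, with the widest gap of these, stood at 8.0 and 8.34, 7.48 and 6.93, and 5.69 and 7.08. The chemokine gene Cxcl13 stood at 7.36 and 7.53, 7.22 and 7.28, and 6.29 and 7.95, and the formyl peptide receptor gene Fpr2 at 8.76 and 9.10, 8.63 and 8.78, and 7.85 and 8.78.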
